A study of Mus musculus with 6 samples.

Results

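The genes described here are 10 components of the calcium pathway that runs from calmodulin to gene transcription, chosen by name for their known roles: 4 calcium-regulated NFAT transcription factors (Nfatc1, Nfatc2, Nfatc3 and Nfatc4), 2 feedback inhibitors of calcineurin (Rcan1 and Rcan2), 2 calcineurin catalytic subunits (Ppp3ca and Ppp3cb) and 2 calcium/calmodulin-dependent protein kinases, or CaM kinases (Camk4 and Camk2d). All 10 were among the 24411 genes of the deposited table, and all 10 had enough counts to be tested. Earlier results of these data were known when the genes were chosen. RNA-seq was done on Achilles tendon of C57BL/6 mice at 18 weeks of age, with 6 libraries in all. Of these, 3 were Scx-Cre/Piezo1 GOF, a genotype in which Cre recombinase driven by Scx, which encodes a transcription factor of tendon cells, is joined to a gain-of-function (GOF) form of Piezo1, the gene of a mechanically gated, calcium-permeable channel. The other 3 libraries were wild type (WT), and the labels give no further allele for them. The Cre acts in cells that express Scx or descend from such cells, so other cells of the dissected tissue need not carry the active allele. Whether each library stands for its own animal is not stated, so the p-values reflect the scatter of these 6 libraries alone, and that scatter may be technical.

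Calcium that enters a cell binds calmodulin, and calcium-loaded calmodulin switches on the phosphatase calcineurin and the CaM kinases. Calcineurin is built from a catalytic and a regulatory subunit and removes phosphate from NFAT factors, which then move into the nucleus and act on their target genes. Rcan proteins bind calcineurin and restrain it, and a short form of Rcan1 is itself switched on by NFAT, which closes a feedback loop. CaM kinase IV, the product of Camk4, is a largely nuclear kinase that is activated by the CaM kinase kinases and phosphorylates the transcription factor CREB. In skeletal muscle this pathway is known for its part in the slow-fibre programme, and in the osteoclast Nfatc1 is the master transcription factor. Because calcineurin acts on NFAT through phosphate, transcript levels do not measure the activity of the pathway.

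Total counts lay between 8131527 and 12631659 in the Piezo1 GOF libraries and between 8519513 and 17180856 in the WT libraries. The log2 fold change (Piezo1 GOF over WT) of Piezo1 was 0.34 ± 0.23 with an edgeR adjusted p of 0.442, and it does not test the labels, because the allele alters the channel and not necessarily its transcript level. Markers of tendon cells were present in every library, with 12 tenocyte markers at 2.71% to 5.51% of counts in Piezo1 GOF and at 0.468% to 1.61% in WT. The summed share of 20 skeletal muscle markers was 7.39%, 2.74% and 6.95% in Piezo1 GOF replicates 1 to 3 and 8.65%, 16.2% and 13.7% in WT replicates 1 to 3 (two-sided exact permutation p = 0.1, the smallest that 3 against 3 allows). WT replicate 1 stood apart, with 10 Schwann cell markers at 0.413% of counts against 0.0159% to 0.0673% in the other 5 libraries, and 10 pericyte and smooth muscle markers at 0.530% against 0.0984% to 0.142%. In bulk tissue, fewer cells of a type and less RNA per cell cannot be told apart.

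Of the 10 genes, Camk4 differed most between the genotypes and was higher in all 3 Piezo1 GOF tendons. Nfatc4 was also higher in all 3, and Rcan2 lower in all 3. Rcan1 was below every WT library in 2 of the 3. The other 6, with both calcineurin catalytic subunits and 3 of the 4 NFAT factors among them, had log2 fold changes (Piezo1 GOF over WT) between -0.25 and 0.21. No member passed an adjusted p of 0.05 in the quasi-likelihood test of edgeR, with p-values adjusted by Benjamini-Hochberg over all 13466 genes tested, where 0.0149% of all genes passed. DESeq2 called 1 member, Camk4, against 5.94% of all genes, and the exact test of edgeR also called Camk4 alone, against 5.12%, while limma voom called 0 members, against 0.861%. At an unadjusted p under 0.05, edgeR's quasi-likelihood test gave 3 of the 10 members (Camk4, Nfatc4 and Rcan2), against 19.8% of all genes tested. The groups did not overlap for the same 3 members, against 25.6% of all genes. The median log2 fold change was -0.03 over the 10 members and -0.004 over all genes tested, with 5 members above and 5 below 0.

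**Figure D1:**
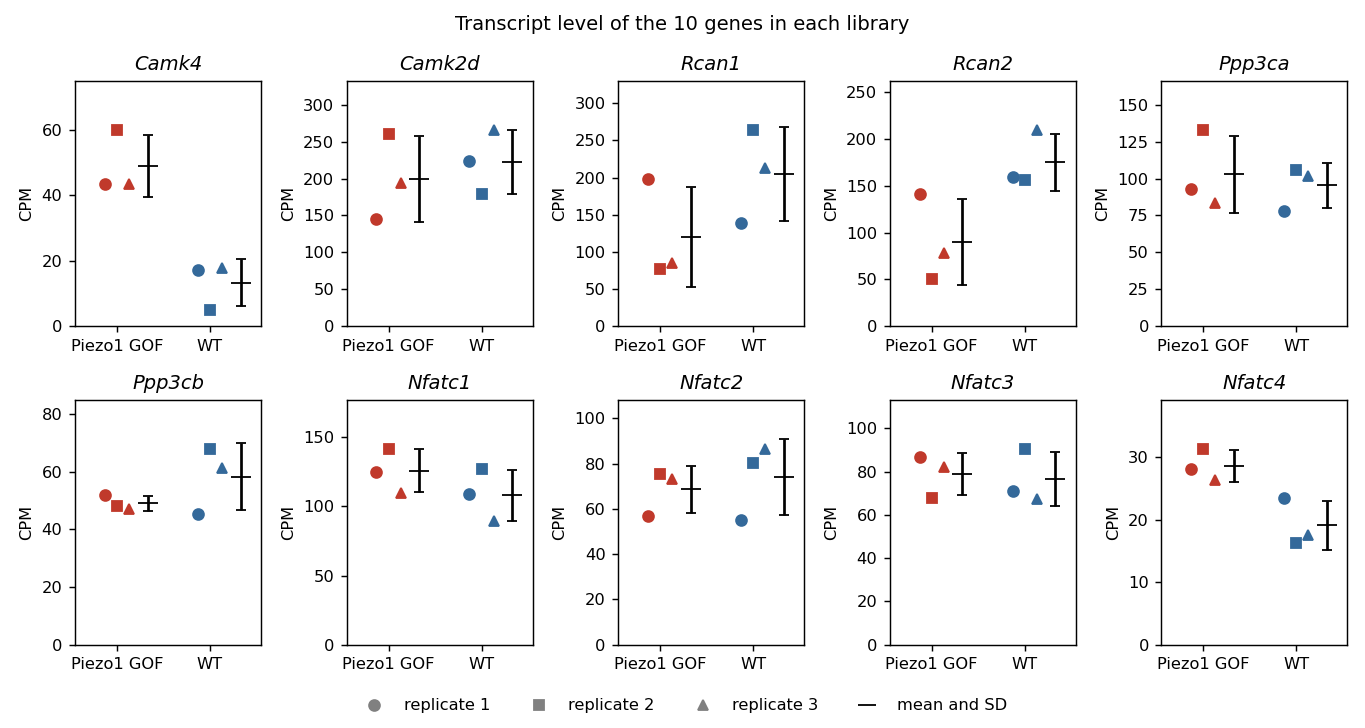
Depth-scaled counts (CPM, vertical axes from 0) of each gene in the 3 Piezo1 GOF libraries (red) and the 3 WT libraries (blue), with the mean and SD in black. The groups are apart for Camk4, Rcan2 and Nfatc4, and they overlap for the other 7 genes.

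Camk4 and Camk2d encode the kinases among the 10. On the CPM scale, which divides counts by library size, Camk4 had 43.6, 60.0 and 43.5 CPM in Piezo1 GOF replicates 1 to 3, against 17, 5.05 and 17.8 CPM in WT replicates 1 to 3. Every Piezo1 GOF library was above every WT library, and WT replicate 2 was lowest by a wide margin, with 79 counts. The fold change was 3.73 with a 95% interval of 1.91 to 7.30 (log2 fold change 1.90 ± 0.43, SE; edgeR adjusted p = 0.104). Camk4 ranked 213 by p among all genes tested. The log2 fold change lay between 1.47 and 2.17 over 18 alternative settings. Its adjusted p was 0.00126 by DESeq2, 0.00259 by the exact test of edgeR and 0.0585 by limma voom, and 0.0416 by edgeR's quasi-likelihood test with no filter on low counts. Leaving out each library in turn gave 1.49 to 2.17, with edgeR adjusted p between 0.0632 (without WT replicate 1) and 0.300 (without Piezo1 GOF replicate 2). Camk4 (ENSMUSG00000038128.7) spans 32934931 to 33191228 on the plus strand of chromosome 18 (mm10), and 72 bases of its exons overlap those of an antisense gene, so the value may hold reads of both if strand was not used in counting.

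Markers of several cell types differed beside Camk4. At an unadjusted edgeR p under 0.05, 10 of 12 tenocyte markers, 14 of 15 macrophage markers, 7 of 9 tested cartilage markers and 5 of 8 adipocyte markers were higher in Piezo1 GOF, against 10.2% of all genes. At the same threshold 6 of 9 tested pericyte and smooth muscle markers, 5 of 10 Schwann cell markers and 2 of 10 endothelial markers were lower, against 9.59% of all genes. Groups were apart, with Piezo1 GOF lower, for 2, 1 and 3 markers of these lists in that order. The Schwann cell share was 0.413%, 0.0159% and 0.0227% in WT replicates 1 to 3 and 0.0498% to 0.0673% in Piezo1 GOF. Only WT replicate 1 was thus above Piezo1 GOF, and the other WT libraries were below it. Acta2, Myh11 and Tagln of smooth muscle and the endothelial marker Vwf were also highest in WT replicate 1. The macrophage markers took 0.0702%, 0.0857% and 0.0993% of counts in Piezo1 GOF and 0.0291%, 0.0179% and 0.0284% in WT. The cartilage markers took 1.33%, 2.34% and 0.797% in Piezo1 GOF and 0.410%, 0.0592% and 0.210% in WT. The adipocyte markers took 0.0825%, 0.161% and 0.272% in Piezo1 GOF and 0.126%, 0.0639% and 0.0315% in WT, where the groups overlapped. Camk4, the tenocyte markers and the cartilage markers were all highest in Piezo1 GOF replicate 2, with Camk4 at 60.0 CPM. All were lowest in WT replicate 2, with Camk4 at 5.05 CPM, the library with the most skeletal muscle markers. With a skeletal muscle score as a covariate the log2 fold change of Camk4 was 1.47 (edgeR adjusted p = 0.271). The part of the other marker lists in the difference was not tested. CaM kinase IV is well known from T cells, and 10 T cell markers together had 2.08 to 6.72 CPM in Piezo1 GOF and 1.83 to 5.66 CPM in WT, and 9 of the 10 had too few counts to be tested. The T cell receptor subunit gene Cd3e was at 0.371 to 0.602 CPM in Piezo1 GOF and at 0 to 1.24 CPM in WT. The genes closest to Camk4 in pattern were Abi3bp, which encodes a secreted matrix protein, and Cpq, which encodes a carboxypeptidase. Their centred log2 CPM differed from that of Camk4 by a root mean square of 0.10 and 0.16 over the 6 libraries, the smallest among 10626 genes.

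Camk2d, which encodes the delta isoform of CaM kinase II, gave 145, 261 and 194 CPM in Piezo1 GOF and 224, 179 and 266 CPM in WT. The groups overlapped, and the libraries of each genotype were spread over a wide range, 1.81-fold in Piezo1 GOF and 1.49-fold in WT. The log2 fold change was -0.16 ± 0.29 (95% interval -0.81 to 0.50; edgeR adjusted p = 0.790). It was -0.50 with the skeletal muscle score as a covariate (adjusted p = 0.566) and 0.03 without Piezo1 GOF replicate 1. Camk2d (ENSMUSG00000053819.16) lies on the plus strand of chromosome 3 at 126596302 to 126846326.

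The Rcan genes, inhibitors of calcineurin, were the members with the lowest fold changes. Rcan2 had 141, 50.7 and 77.9 CPM in Piezo1 GOF replicates 1 to 3, against 159, 156 and 209.7 CPM in WT replicates 1 to 3. The groups did not overlap, but Piezo1 GOF replicate 1 came close to the WT range. The log2 fold change was -0.96 ± 0.36 (95% interval -1.78 to -0.15; edgeR adjusted p = 0.205). It was -1.45 without Piezo1 GOF replicate 1 (adjusted p = 0.106) and -0.65 without Piezo1 GOF replicate 2 (adjusted p = 0.457).

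Rcan1 showed the same order of libraries within the mutant but not the same separation. It had 198, 77.2 and 84.4 CPM in Piezo1 GOF replicates 1 to 3, against 139, 264 and 213 CPM in WT replicates 1 to 3. Replicates 2 and 3 of Piezo1 GOF were below all WT libraries, whereas replicate 1 was above WT replicate 1. The log2 fold change was -0.78 ± 0.40 (95% interval -1.69 to 0.13; edgeR adjusted p = 0.312). Without Piezo1 GOF replicate 1 it was -1.35 (adjusted p = 0.123), and without Piezo1 GOF replicate 2 it was -0.52 (adjusted p = 0.645).

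The level of skeletal muscle markers is set beside the Rcan genes here. Piezo1 GOF replicate 2 had the lowest muscle share, 2.74%, and the lowest Rcan1 and Rcan2 levels of all 6 libraries. WT replicate 2 had the highest muscle share, 16.2%, and the highest Rcan1 level, but at 156 CPM the lowest Rcan2 level of the 3 WT libraries. With the muscle score as a covariate the log2 fold change was -0.30 for Rcan1 (adjusted p = 0.829) and -0.69 for Rcan2 (adjusted p = 0.565). The muscle share was lower in all 3 Piezo1 GOF libraries than in any WT library, so muscle content and genotype cannot be told apart with 6 libraries. Of the 20 muscle markers 19 had a negative log2 fold change, while 2 of the 20 were lower at an unadjusted edgeR p under 0.05, a share near the 9.59% of all genes. The genes closest to Rcan2 in pattern were Atp1b1, a subunit of the sodium pump (root mean square difference 0.08), and Lmod3, an actin regulator of skeletal muscle (0.09). Those closest to Rcan1 were Stab2, a scavenger receptor gene (0.13), and Dyrk1b, a kinase gene (0.14).

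**Figure D2:**
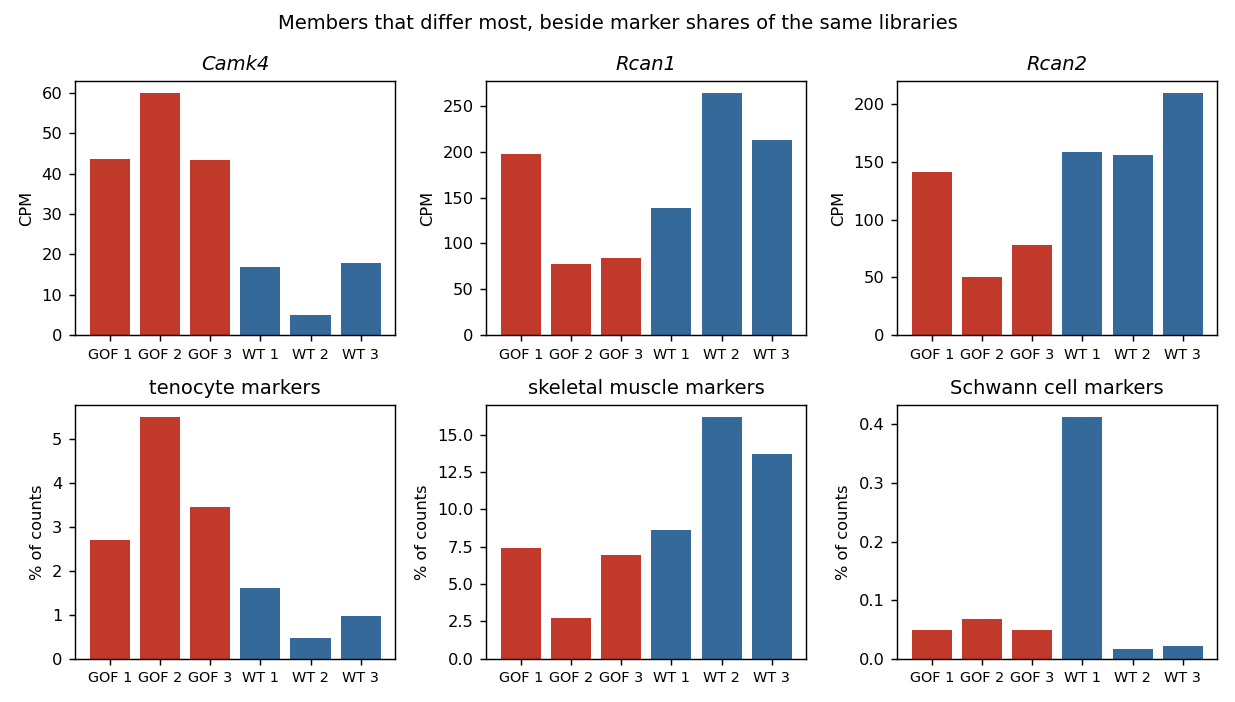
Level of Camk4, Rcan1 and Rcan2 in CPM (upper row) and the share of counts, in percent, from tenocyte, skeletal muscle and Schwann cell markers (lower row), as bars from 0 for each Piezo1 GOF library (GOF, red) and each WT library (blue). Camk4 is highest where tenocyte markers are highest, in Piezo1 GOF replicate 2, Rcan1 is highest where muscle markers are highest, in WT replicate 2, and Schwann cell markers stand out in WT replicate 1.

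The start regions of the Rcan genes are shown because these are the members of the feedback loop, and because both have more than 1 start, which counts per gene do not separate. RefSeq sequences of 300 bases (250 before to 50 after the start, build GRCm38.p6) were searched on both strands for GGAAA, the core of the NFAT binding sequence, and for TGACGTCA, the full CRE that CREB binds. Matches are in capitals, GGAAA on the other strand reads TTTCC, and none of the matches in these sequences overlap. The sequences run 5′ to 3′ along the gene. The upstream Rcan1 start lies at chr16:92466120-92466419 and the internal one at chr16:92400029-92400328, both on the minus strand, and the Rcan2 start shown, 1 of 3 in the table, lies at chr17:43801102-43801401 on the plus strand.
Rcan1 upstream start: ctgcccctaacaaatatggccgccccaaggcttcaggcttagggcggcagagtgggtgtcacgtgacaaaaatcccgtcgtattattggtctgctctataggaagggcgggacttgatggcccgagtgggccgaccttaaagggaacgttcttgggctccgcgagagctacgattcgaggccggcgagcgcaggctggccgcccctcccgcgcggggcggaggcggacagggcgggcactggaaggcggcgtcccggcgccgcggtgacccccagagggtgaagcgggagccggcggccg
Rcan1 internal start: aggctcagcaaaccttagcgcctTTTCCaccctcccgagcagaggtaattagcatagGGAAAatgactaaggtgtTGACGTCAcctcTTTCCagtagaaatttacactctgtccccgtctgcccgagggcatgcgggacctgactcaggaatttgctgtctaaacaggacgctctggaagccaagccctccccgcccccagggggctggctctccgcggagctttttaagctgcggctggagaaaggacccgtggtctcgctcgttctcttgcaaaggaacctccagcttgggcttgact
Rcan2 start: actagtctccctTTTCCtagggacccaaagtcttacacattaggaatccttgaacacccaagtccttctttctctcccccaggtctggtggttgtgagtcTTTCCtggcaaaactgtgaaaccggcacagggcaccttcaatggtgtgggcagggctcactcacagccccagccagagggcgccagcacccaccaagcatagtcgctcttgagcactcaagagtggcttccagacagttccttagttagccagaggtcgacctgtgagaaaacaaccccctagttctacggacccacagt
The upstream Rcan1 sequence held 0 matches of either motif. The internal one held 3 matches of GGAAA, which began 227, 193 and 163 bases before the start, and 1 of TGACGTCA, 175 bases before it. The Rcan2 sequence shown held 2 matches of GGAAA, 238 and 150 bases before its start, and 0 of TGACGTCA. The sequences of the other 2 Rcan2 starts, at chr17:43801601-43801900 and chr17:43952749-43953048, held 0 of either motif. Of 32851 promoters of the same length in the table, 61.3% held at least 1 GGAAA, 26.7% at least 2 and 9.42% at least 3, while 1.79% held TGACGTCA. At least 3 of GGAAA together with TGACGTCA, the matches found at the internal Rcan1 start, stood in 0.180% of promoters. Because the combination is that of this start, its share is not a test of it. A match describes letters in this window and is not evidence of binding, and which start of Rcan1 or Rcan2 gave the counts cannot be read from them. Rcan1 (ENSMUSG00000022951.16) spans 92391953 to 92470867 of chromosome 16 and Rcan2 (ENSMUSG00000039601.16) spans 43801351 to 44039516 of chromosome 17.

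The catalytic subunits of calcineurin overlapped between the genotypes. Ppp3ca, which encodes the alpha catalytic subunit, had 93.0, 133 and 83.7 CPM in Piezo1 GOF and 78.0, 106 and 102 CPM in WT, with overlapping groups. Its log2 fold change was 0.11 ± 0.25 (95% interval -0.44 to 0.67; edgeR adjusted p = 0.826). Ppp3cb, the beta catalytic subunit gene, had 52.0, 48.0 and 47.1 CPM in Piezo1 GOF and 45.2, 68.0 and 61.4 CPM in WT, again with overlap. Its log2 fold change was -0.25 ± 0.21 (95% interval -0.73 to 0.24; edgeR adjusted p = 0.538). The intervals leave room for a change of up to 1.59-fold upward for Ppp3ca and down to 0.602-fold for Ppp3cb, so that equal expression was not shown for either. Among the 3 catalytic subunit genes, with Ppp3cc as the third, Ppp3ca took 52.5% to 61.0% of the level per kilobase in Piezo1 GOF and 48.6% to 50.9% in WT, so the alpha subunit was the leading transcript in each library. Ppp3ca (ENSMUSG00000028161.17) lies on chromosome 3 at 136670124 to 136937727 and Ppp3cb (ENSMUSG00000021816.11) on chromosome 14 at 20499364 to 20546573.

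Among the 4 NFAT factors, Nfatc4 was the one whose groups did not overlap. It had 28.1, 31.4 and 26.3 CPM in Piezo1 GOF replicates 1 to 3, against 23.5, 16.2 and 17.5 CPM in WT replicates 1 to 3. All 3 Piezo1 GOF libraries were above all 3 WT libraries, with the smallest gap to WT replicate 1. The fold change was 1.5 with a 95% interval of 1.06 to 2.13 (log2 fold change 0.58 ± 0.22; edgeR adjusted p = 0.210). Over the 18 alternatives its log2 fold change lay between 0.42, with the muscle score as a covariate, and 0.78, without WT replicate 1, and its adjusted p between 0.107 and 0.584. The genes closest to it in pattern were Csk, a kinase that holds Src-family kinases inactive (root mean square difference 0.05), and Tbc1d10a, a regulator of Rab GTPases (0.06).

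The start region of Nfatc4 is shown because it is the NFAT gene whose groups did not overlap, with GGAAA and its other strand TTTCC in capitals as above. It lies at chr14:55824545-55824844 on the plus strand of GRCm38.p6 (RefSeq).
Nfatc4 start: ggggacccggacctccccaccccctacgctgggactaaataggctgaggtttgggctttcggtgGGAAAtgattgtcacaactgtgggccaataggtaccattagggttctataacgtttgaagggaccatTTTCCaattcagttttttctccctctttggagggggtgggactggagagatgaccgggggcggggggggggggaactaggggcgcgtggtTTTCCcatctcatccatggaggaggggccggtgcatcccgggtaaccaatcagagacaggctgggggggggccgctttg
It held 3 matches of GGAAA, which began 186, 119 and 29 bases before the start, and 0 of TGACGTCA, where 9.42% of promoters held at least 3 of GGAAA. Members whose groups overlapped held as many or more. The Ppp3cb start held 4 of GGAAA, where 2.65% of promoters held at least 4, and 1 Nfatc2 start held 3. The other Nfatc2 start, the Camk2d start and 1 Nfatc3 start held 1 each, and the other Nfatc3 start held 0.

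Nfatc1, Nfatc2 and Nfatc3 overlapped between the genotypes. Nfatc1 had 125, 142 and 109.9 CPM in Piezo1 GOF and 109, 127 and 89.8 CPM in WT, a log2 fold change of 0.21 ± 0.22 (95% interval -0.29 to 0.71; edgeR adjusted p = 0.616). Nfatc2, which is prominent in T cells, had 56.8, 75.6 and 73.2 CPM in Piezo1 GOF and 54.9, 80.1 and 86.7 CPM in WT (log2 fold change -0.11 ± 0.24; 95% interval -0.64 to 0.43; edgeR adjusted p = 0.828). The lowest Nfatc2 library of each genotype was its replicate 1. Nfatc3 had 86.6, 67.8 and 82.2 CPM in Piezo1 GOF and 71.0, 90.7 and 67.4 CPM in WT (log2 fold change 0.05 ± 0.21; 95% interval -0.43 to 0.52; edgeR adjusted p = 0.924). Exons of Nfatc3 share 219 bases with Esrp2 on the other strand, but Esrp2 had 0.148 to 0.903 CPM in Piezo1 GOF and 0.107 to 0.575 CPM in WT. For the 6 members whose nearest genes are not named elsewhere, the closest genes were Gps1 and Tmem115 for Nfatc1, Usp25 and Rad17 for Nfatc2, Khnyn for Nfatc3, Porcn and Rev1 for Ppp3ca, Wdr41 and Rab1b for Ppp3cb, and Ubl5 and Cnot7 for Camk2d. Their root mean square differences lay between 0.02 and 0.09.

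Because Nfatc1 is the master factor of osteoclasts, markers of that cell were set beside it. Of 10 osteoclast markers 5 had enough counts to be tested, of which 3 had a positive and 2 a negative log2 fold change, and 1 (Acp5) an unadjusted edgeR p under 0.05. The summed level of the 10 was 85.8, 149 and 140.3 CPM in Piezo1 GOF and 101, 28.4 and 51.5 CPM in WT, with overlap (two-sided exact permutation p = 0.2 for their share of counts). Acp5, the tartrate-resistant acid phosphatase gene, had 19.4, 27.0 and 41.4 CPM in Piezo1 GOF and 23.3, 6.51 and 4.07 CPM in WT. The other 4 tested markers had log2 fold changes of 1.49 ± 0.68 (Ctsk), 1.09 ± 1.16 (Mmp9), -0.29 ± 0.32 (Itgb3) and -0.07 ± 0.43 (Tnfrsf11a). Dcstamp, needed for osteoclast fusion, had 0, 0.702 and 3.34 CPM in Piezo1 GOF and 0.107, 0 and 0 CPM in WT, and the calcitonin receptor gene Calcr was at 0 in all 3 Piezo1 GOF libraries and at 0, 0.383 and 0.452 CPM in WT. Nfatc1 (ENSMUSG00000033016.16; chromosome 18, 80606205 to 80713071), Nfatc2 (ENSMUSG00000027544.16; chromosome 2, 168476410 to 168601657) and Nfatc3 (ENSMUSG00000031902.10; chromosome 8, 106058840 to 106130537) lie on separate chromosomes, and Nfatc4 (ENSMUSG00000023411.12) lies at 55823144 to 55833943 of chromosome 14.

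**Figure D3:**
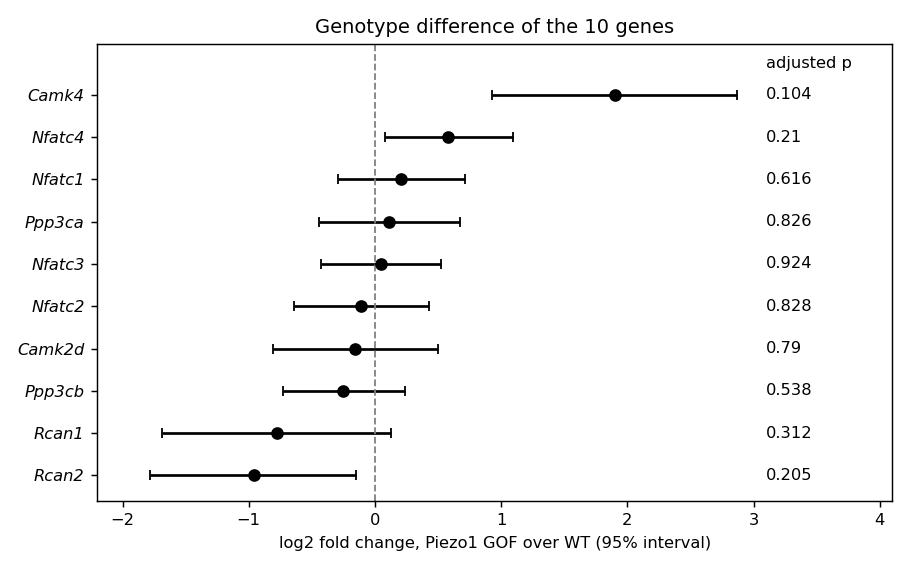
Log2 fold change of Piezo1 GOF over WT for the 10 genes (horizontal axis; points) with 95% intervals (bars) and the edgeR adjusted p over all genes at the right. The intervals of Camk4, Nfatc4 and Rcan2 do not include 0, and the smallest adjusted p is 0.104.

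Levels of different genes were compared per kilobase of merged exons, since longer transcripts collect more reads. In Piezo1 GOF tendons Rcan1 led with 43.1 ± 24.3 CPM per kilobase (SD, n = 3), followed by Camk2d at 23.4 ± 6.86, Rcan2 at 22.1 ± 11.4, Ppp3ca at 21.5 ± 5.45, Camk4 at 18.0 ± 3.50 and Nfatc1 at 16.9 ± 2.13. The ranges of neighbouring genes in this stretch overlapped, so their order is not set beyond the spread. Nfatc3 (12.8 ± 1.59), Ppp3cb (10.3 ± 0.547) and Nfatc2 (8.20 ± 1.22) came next and did not overlap with the neighbour above, while Nfatc4 (7.01 ± 0.632) overlapped with Nfatc2.

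In WT tendons Rcan1 (74.0 ± 22.7 CPM per kilobase) and Rcan2 (43.1 ± 7.44) came first with overlapping ranges, and Rcan2 was above the range of Camk2d (26.1 ± 5.12). From Camk2d through Ppp3ca, Nfatc1, Nfatc3 and Ppp3cb to Nfatc2 each neighbour overlapped with the next. Camk4 (4.88 ± 2.62) and Nfatc4 (4.68 ± 0.954) came last, below the range of Nfatc2 and overlapping with each other. The gap was narrow for Camk4, with 6.54 in its highest WT library against 6.56 in the lowest for Nfatc2. Camk4 thus stood at place 5 of 10 in Piezo1 GOF and at place 9 in WT. The summed level of the 4 NFAT factors was 44.6, 46.8 and 43.3 CPM per kilobase in Piezo1 GOF and 38.5, 45.3 and 37.7 in WT, and Nfatc1 was the largest part of it in every library, with 34.1% to 40.7% in Piezo1 GOF and 32.1% to 38.0% in WT.

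**Figure D4:**
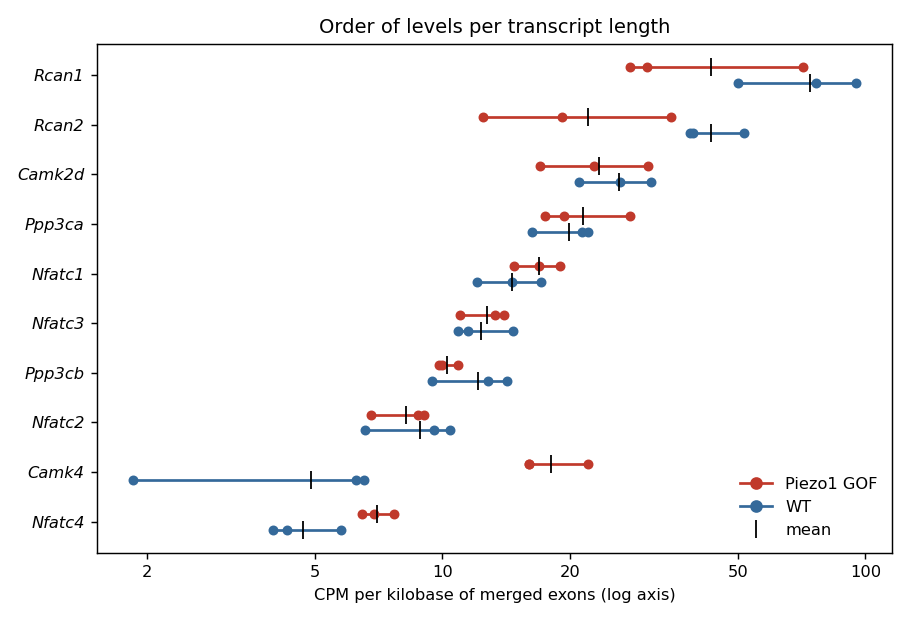
Level of each gene in CPM per kilobase of merged exons (log axis) for the Piezo1 GOF libraries (red, upper line of each pair) and the WT libraries (blue, lower line); points are libraries, lines their range and black ticks the mean. Camk4 stands in the middle of the order in Piezo1 GOF, at 18.0, and near the low end in WT, at 4.88.

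The rest of the pathway was read from lists of genes with known roles. Of 71 further genes, 67 were tested. None passed the adjusted threshold by edgeR, while an unadjusted p under 0.05 was reached by 7 higher and 9 lower genes, against 10.2% higher and 9.59% lower among all genes. The median log2 fold change of the 67 was -0.18, against -0.004 over all genes.

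The other CaM kinase genes held the member of these lists with the smallest p. Camk1d, which encodes the delta isoform of CaM kinase I, had 44.7, 54.5 and 34.1 CPM in Piezo1 GOF, against 16.1, 10.2 and 16.6 CPM in WT, with no overlap (log2 fold change 1.64 ± 0.27; edgeR adjusted p = 0.0572). The CaM kinase kinases, which activate CaM kinases I and IV, were likewise above WT in every Piezo1 GOF library. Of the 13 tested genes of this list, the groups did not overlap for 3 higher and 3 lower ones. Over all genes tested the shares were 13.6% higher and 12.1% lower. Camkk2 had 33.2, 37.7 and 39.6 CPM in Piezo1 GOF and 27.1, 23.8 and 24.8 CPM in WT (0.55 ± 0.19; edgeR adjusted p = 0.185). Camkk1 had 15.6, 19.3 and 18.5 CPM in Piezo1 GOF and 15.4, 4.15 and 7.58 CPM in WT (0.99 ± 0.43; edgeR adjusted p = 0.249), where the gap to WT replicate 1 was narrow. Camk1 itself overlapped between the groups (0.21 ± 0.19; edgeR adjusted p = 0.563).

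The other genes of CaM kinase II had negative log2 fold changes. Camk2g, the gamma isoform gene, had 62.3, 45.4 and 54.8 CPM in Piezo1 GOF and 97.4, 77.0 and 78.2 CPM in WT (log2 fold change -0.64 ± 0.21; edgeR adjusted p = 0.178). Camk2a, the alpha isoform gene, had 33.9, 12.9 and 32.0 CPM in Piezo1 GOF and 34.3, 60.7 and 54.1 CPM in WT (-0.92 ± 0.37; edgeR adjusted p = 0.226). Neither overlapped between the groups, though replicate 1 of each genotype was nearly level for Camk2a. Camk2b overlapped (-0.19 ± 0.31; edgeR adjusted p = 0.756). In all, 13 of 15 genes of this list were tested, of which 3 higher and 2 lower ones reached an unadjusted p under 0.05, and the median log2 fold change was -0.19.

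Calmodulin is the calcium sensor of the pathway, and Calm2 and Calm3 are among the genes that encode it. Calm2 had 153, 249.8 and 182 CPM in Piezo1 GOF and 155, 66.2 and 103 CPM in WT (log2 fold change 0.85 ± 0.34; edgeR adjusted p = 0.221). Calm3 had a log2 fold change of 0.25 ± 0.24 (edgeR adjusted p = 0.577). Ppp3r1, the regulatory subunit of calcineurin, had 53.7, 64.3 and 58.9 CPM in Piezo1 GOF and 73.5, 66.0 and 91.2 CPM in WT (-0.38 ± 0.21; edgeR adjusted p = 0.327), and Ppp3cc had -0.33 ± 0.30 (edgeR adjusted p = 0.571). Ppp3r2 had too few counts to be tested. Of the 5 tested genes, an unadjusted p under 0.05 was reached by Calm2 alone.

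Proteins that anchor or inhibit calcineurin included several of muscle. At an unadjusted p under 0.05, 1 of 16 genes was higher and 3 were lower, with a median log2 fold change of -0.05. Myoz2, a calcineurin-binding protein of the sarcomere, had 200.4, 59.9 and 77.8 CPM in Piezo1 GOF and 195, 562 and 315 CPM in WT (-1.67 ± 0.53; edgeR adjusted p = 0.170). Akap6, an anchoring protein of striated muscle, had 192, 93.7 and 185 CPM in Piezo1 GOF and 215, 395 and 561 CPM in WT (-1.32 ± 0.41; edgeR adjusted p = 0.168). Homer2, a scaffold protein, had a log2 fold change of -1.20 ± 0.50 (edgeR adjusted p = 0.236). All 3 were lowest in Piezo1 GOF replicate 2, the library with the fewest muscle markers. Fkbp1b, an immunophilin that binds calcium release channels, had 4.42, 11.1 and 5.41 CPM in Piezo1 GOF and 3.65, 1.15 and 1.02 CPM in WT (1.86 ± 0.61; edgeR adjusted p = 0.176).

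NFAT kinases return phosphate to NFAT and oppose calcineurin. Of 12 genes in that list, which also holds the calcium-independent factor Nfat5, an unadjusted p under 0.05 was found for 1 higher and 2 lower genes, and the median log2 fold change was -0.24. Dyrk1a, which primes NFAT for export from the nucleus, had 81.7, 67.8 and 71.5 CPM in Piezo1 GOF and 100, 141 and 116 CPM in WT, with no overlap (-0.69 ± 0.21; edgeR adjusted p = 0.165). Gsk3a had 48.9, 31.5 and 40.2 CPM in Piezo1 GOF and 47.2, 112 and 53.4 CPM in WT (-0.82 ± 0.35; edgeR adjusted p = 0.241). Nfat5, which answers osmotic stress, had 282, 399 and 251 CPM in Piezo1 GOF and 218, 156 and 199.9 CPM in WT, with no overlap (0.70 ± 0.27; edgeR adjusted p = 0.218).

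Among 15 tested transcription factors and cofactors that CaM kinases or calcineurin act on, 1 higher and 2 lower genes had an unadjusted p under 0.05, with a median log2 fold change of -0.28. Hdac9, a class IIa histone deacetylase that represses MEF2 factors, had 18.9, 15.3 and 15.9 CPM in Piezo1 GOF and 25.7, 35.6 and 47.1 CPM in WT (-1.11 ± 0.26; edgeR adjusted p = 0.110). Ppargc1a, a coactivator of mitochondrial genes, had 20.9, 8.33 and 18.3 CPM in Piezo1 GOF and 27.5, 30.1 and 33.8 CPM in WT (-0.94 ± 0.33; edgeR adjusted p = 0.187). Mef2a had 387, 460.1 and 295 CPM in Piezo1 GOF and 218, 217 and 239 CPM in WT (0.76 ± 0.26; edgeR adjusted p = 0.184). The groups did not overlap for any of these 3 genes.

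The 6 genes of store-operated calcium entry, the route by which emptied calcium stores open channels of the plasma membrane, gave 0 with an unadjusted p under 0.05 by edgeR and a median log2 fold change of -0.08. Stim1, the calcium sensor of the stores, had 134, 39.2 and 109 CPM in Piezo1 GOF and 150.3, 192 and 165 CPM in WT, with no overlap (-0.85 ± 0.40; edgeR adjusted p = 0.278). The log2 fold changes of the other sensor Stim2, of the channel genes Orai1, Orai2 and Orai3 and of the regulator Saraf were 0.10 ± 0.26, -0.29 ± 0.31, 0.75 ± 0.57, 0.02 ± 0.21 and -0.18 ± 0.21 in that order, with edgeR adjusted p between 0.485 and 0.966. Stim1 was lowest in Piezo1 GOF replicate 2, as were the muscle markers.

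**Figure D5:**
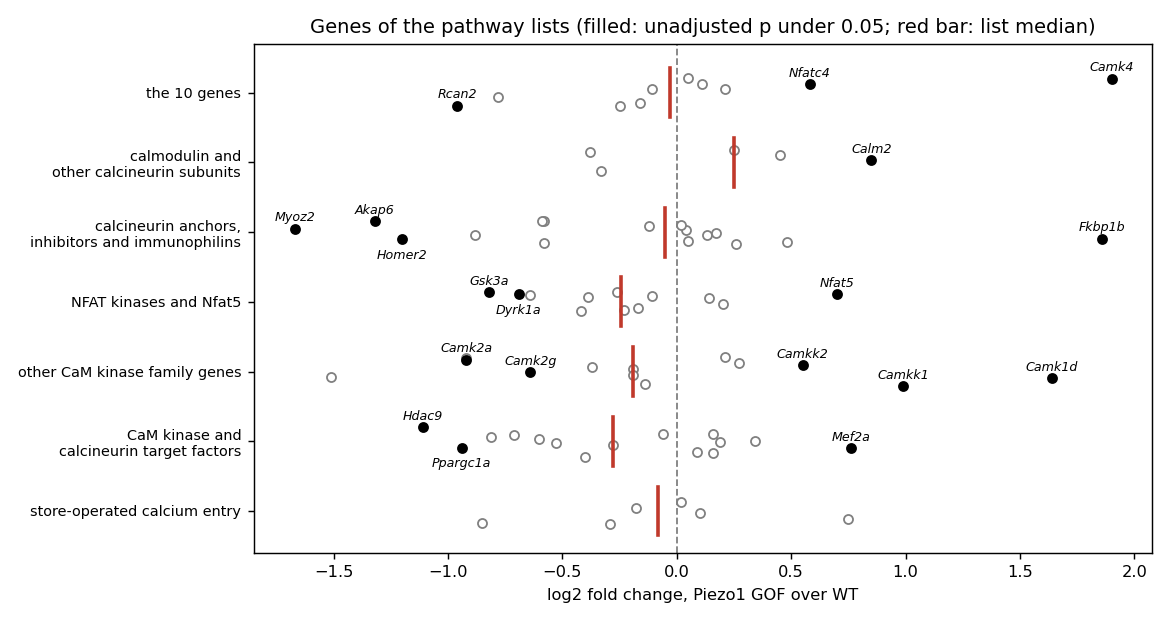
Log2 fold change of Piezo1 GOF over WT (horizontal axis) for every tested gene of the 10 members and of the 6 pathway lists; filled points have an unadjusted edgeR p under 0.05, open points do not, vertical scatter within a row is for display, and the red bar is the median. Camk4 at 1.90, Fkbp1b at 1.86 and Camk1d at 1.64 lie farthest to the right and Myoz2 at -1.67 farthest to the left.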

How the data were processed

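Total RNA was isolated and RamDA-seq libraries, whose priming is not limited to poly(A) tails, were made per the labels' protocols. The authors deposited a table of expected counts by gene symbol with no depth or length scaling, and per the submitters' processing notes the tools were STAR, RSEM, bcl2fastq and edgeR with build mm10. The sources used here give neither annotation nor strand setting.

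Counts were rounded, filtered with filterByExpr (minimum count 10) and scaled by TMM (factors 0.897 to 1.1), and tested between genotypes by the quasi-likelihood method of edgeR without covariates (common dispersion 0.113). CPM used the TMM-scaled library sizes, and log2 CPM a prior count of 2. Exon lengths, coordinates and overlaps came from GENCODE mouse release M21 on the same build, in which 23334 symbols (95.6%) had a single match. The edgeR step was tested on simulated data. Total counts of 8131527 to 17180856 per library give the depth, and intervals are those of the fit.

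The members and lists were chosen with earlier results of these data known. Named were all members, genes of the pathway lists with an unadjusted p under 0.05 and a mean CPM of at least 1 (the 4 of smallest p per list), all genes of lists of 6 or fewer, and for each member the 2 genes of mean CPM at least 5 nearest in centred log2 CPM. Camkk1, Camk1, Camk2b, Esrp2 and the marker genes named singly were chosen after their values were seen. A gene of a pathway list and a nearest gene that the rule names are not reported here. Promoters were taken from RefSeq (GRCm38.p6), which had entries for 7 of the 8 members off chromosome 18 and none for Ppp3ca. The alternatives are listed in the closing section. Fits used edgeR 4.0.16, DESeq2 1.42.0 and limma 3.58.1 in R 4.3.3, and summaries used pandas 2.3.3 and scipy 1.17.1 in Python 3.11.15, with figures by matplotlib 3.10.9.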

Additional observations from a re-analysis of the deposited data

How the results depend on the processing

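The 18 alternatives changed the scaling (3), the filter (2) or the tool (DESeq2, edgeR's exact test, weighted voom), added a replicate block or a muscle covariate, took out muscle and erythroid markers, left out each library and, chosen after seeing the data, took out Rn45s and Lars2. An adjusted p under 0.10 was also tried. The number of members called was 0, and it was 1 (Camk4) with no filter, by DESeq2 and by the exact test. Directions held under all 18 alternatives for Camk4, Nfatc4, Nfatc1, Rcan1, Rcan2 and Ppp3cb. Nfatc2 turned to 0.03 with total counts only, and lay between -0.26 and 0.02 when libraries were left out. Ppp3ca turned to -0.05 by voom and -0.05 with the muscle covariate, and lay between -0.09 and 0.25 without single libraries. Nfatc3 lay between -0.04 and 0.19 and Camk2d between -0.37 and 0.03 without single libraries. Members with an unadjusted p under 0.05 numbered 3, but 1 with the muscle covariate and 1 to 4 without single libraries, where Camk4 alone was left without Piezo1 GOF replicate 2 or WT replicate 3. Over all genes, 2 calls became 0 with total counts only, 0 with the replicate block, 0 with the muscle covariate, 165 with no filter, 880 by DESeq2, 689 by the exact test, 116 by voom, 151 at an adjusted p under 0.10, and 0 to 228 without single libraries, with 228 without WT replicate 1. The cause was not tested. Total-count scaling put the median log2 fold change of all genes at 0.1, against -0.004 with TMM.

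Same-numbered libraries did not deviate together (correlations -0.207, -0.137 and -0.053 for numbers 1 to 3). Of the 6 libraries, 0 correlated best with its own number. A check on 3 libraries per genotype cannot exclude a shared litter or day, which the labels do not state. With the block 0 members were called and 2, Camk4 and Rcan2, had an unadjusted p under 0.05. The comparison rests on 3 libraries per group and on the spread between them, and the part of depth in it was not tested. The muscle share differed by -7.15 percentage points, by -9.24 to -5.47 without single libraries and by -3.53 without Ttn, its most abundant marker.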
